A study of Mus musculus with 10 samples.

Results

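The mitochondrially encoded genes are the rows of the count table whose gene symbol begins with mt-, a rule that uses names alone. This part was picked for description with earlier results of these data known. There are 37 such genes among 54532 genes, namely 13 mRNAs, 2 rRNAs and 22 tRNAs. They were counted by RNA sequencing in 10 libraries of lung total RNA, all from wild-type mice. Lungs in the LPS+TSLP group (4 libraries) received recombinant TSLP, thymic stromal lymphopoietin, an epithelial cytokine, ahead of LPS. LPS is lipopolysaccharide, an outer-membrane component of Gram-negative bacteria, and the LPS group held 3 libraries. The Vehicle group also held 3 libraries. Doses, times, ages and batches are not given in the sources used here, and the labels do not say whether each library is a separate animal, so every p-value measures the spread between these samples. Total counts ranged from 16175172 to 18374461 per library.

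Mitochondria keep a small circular genome of their own, transcribed on both strands into long precursors that are cut at the tRNAs to release mRNAs and rRNAs. Its mRNAs encode core subunits of respiratory complexes I, III and IV and of the ATP synthase, its rRNAs form the mitochondrial ribosome, and its tRNAs read the codons of those mRNAs. All other subunits of these complexes come from the nucleus, so assembly of the respiratory chain in lung epithelium, endothelium and leukocytes needs both genomes. In the annotation, 28 members were on the plus strand, the sense of heavy-strand transcription, and 9 on the minus strand, that of light-strand transcription, namely mt-Nd6 and 8 tRNAs.

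The 8 tRNAs with the highest mean level are shown 5′ to 3′ as DNA letters of the GRCm38 annotation (GENCODE M21), with the anticodon in capitals, because the anticodon tells which amino acid each carries and the tRNAs behaved differently in the results. The minus strand is the one that carries the light-strand genes in this annotation.
mt-Tp (chrM:15356-15422, minus strand): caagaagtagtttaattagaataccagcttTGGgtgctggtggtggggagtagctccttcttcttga
mt-Tc (chrM:5192-5257, minus strand): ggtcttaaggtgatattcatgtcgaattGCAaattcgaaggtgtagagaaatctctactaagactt
mt-Tn (chrM:5089-5159, minus strand): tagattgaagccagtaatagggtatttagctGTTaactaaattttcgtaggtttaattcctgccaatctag
mt-Tl2 (chrM:11671-11741, plus strand): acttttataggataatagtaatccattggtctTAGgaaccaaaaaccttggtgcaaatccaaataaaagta
mt-Te (chrM:14071-14139, minus strand): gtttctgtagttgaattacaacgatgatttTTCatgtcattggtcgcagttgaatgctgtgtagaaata
mt-Tl1 (chrM:2676-2750, plus strand): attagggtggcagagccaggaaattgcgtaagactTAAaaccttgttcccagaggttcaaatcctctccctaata
mt-Ty (chrM:5260-5326, minus strand): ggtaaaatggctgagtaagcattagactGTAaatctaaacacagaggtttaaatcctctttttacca
mt-Ts2 (chrM:11613-11671, plus strand): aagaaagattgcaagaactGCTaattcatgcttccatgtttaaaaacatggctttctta
These carry proline (mt-Tp), cysteine (mt-Tc), asparagine (mt-Tn), leucine (mt-Tl2 and mt-Tl1), glutamate (mt-Te), tyrosine (mt-Ty) and serine (mt-Ts2), and mt-Ts2 is the mammalian tRNA known for lacking a D arm.

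Several mRNAs have annotated nuclear copies, and the next sequences show how alike they are, because counts of such genes depend on how shared reads were placed. Each line gives the first 60 bases that a mitochondrial gene and its chromosome 1 copy have in common in register, with mismatched bases in capitals.
mt-Co1 (chrM:6381-6440, plus strand): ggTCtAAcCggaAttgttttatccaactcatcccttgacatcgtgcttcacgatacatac
Gm29216 (chr1:24616138-24616197, minus strand): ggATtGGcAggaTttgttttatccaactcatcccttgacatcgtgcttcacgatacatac
mt-Co2 (chrM:7013-7072, plus strand): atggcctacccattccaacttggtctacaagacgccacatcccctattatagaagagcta
Gm28661 (chr1:24615506-24615565, minus strand): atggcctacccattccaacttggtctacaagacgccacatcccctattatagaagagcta
mt-Nd3 (chrM:9459-9518, plus strand): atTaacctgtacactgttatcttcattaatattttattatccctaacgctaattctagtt
Gm28438 (chr1:24613060-24613119, minus strand): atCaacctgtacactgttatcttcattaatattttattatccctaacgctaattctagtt
Counted from 1 at the first base of the mitochondrial gene, the substitutions from gene to copy were T1056A, C1057T, A1059G, A1060G, C1062A and A1066T in mt-Co1 and T3C in mt-Nd3. The mt-Co2 stretch had none. The last sequence is the 3′ end of mt-Nd5, with the 14 bases that it shares with mt-Nd6 on the opposite strand in capitals.
mt-Nd5 (chrM:13526-13565, plus strand): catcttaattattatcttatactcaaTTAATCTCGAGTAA
The strand setting of the counting is not given, so reads of mt-Nd6 and reads of heavy-strand precursor across the same bases cannot be told apart.

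Libraries LPS+TSLP replicate 1 and LPS replicate 1 stood apart from the rest. LPS+TSLP replicate 1 had the lowest summed level of 6 alveolar type 2 markers, 3725 unscaled CPM, that is counts scaled to an equal library total, against 15281 to 23396 CPM in the other LPS+TSLP libraries, 6580 to 14430 CPM in LPS and 17289.7 to 26620.2 CPM in Vehicle. Its 6 neutrophil markers summed to 114 CPM, the lowest of all, and its 8 heart muscle markers to 698 CPM, where LPS+TSLP replicates 2 to 4 had 54.9 to 193 CPM, LPS had 41.0 to 276 CPM and Vehicle had 110 to 741 CPM. In the same library alveolar type 1 markers summed to 741 CPM, the lowest of all, and ciliated cell markers to 877 CPM, the highest, against 171 to 576 CPM elsewhere. Its club cell markers summed to 21654 CPM, the highest of its group. LPS replicate 1 had the highest sums of all for club cell, alveolar type 1 and erythroid markers, 24608, 3929 and 4842 CPM. Skeletal muscle and brown fat markers summed to at most 20.1 and 13.2 CPM in any library. LPS replicate 1 had 190 CPM of Xist and 0 of the Y-linked Ddx3y, where no other library passed 0.455 CPM of Xist. Ddx3y stood at 57.7 to 96.1 CPM in LPS+TSLP, 70.6 and 89.3 CPM in LPS replicates 2 and 3, and 6.15 to 11.9 CPM in Vehicle. The part of these differences in the results below was not tested. Counts of called members, of their nuclear copies and of listed nuclear partner genes are also given without LPS+TSLP replicate 1 and LPS replicate 1, and library values are listed 1 by 1. Groups differed in marker levels as well. Neutrophil markers summed to 114 to 1069 CPM in LPS+TSLP, 1522 to 2031 CPM in LPS and 357 to 1176 CPM in Vehicle, and 5 endothelial markers to 1952 to 3081 CPM in LPS+TSLP, 2481 to 2803 CPM in LPS and 3371 to 4430.3 CPM in Vehicle. Thus neutrophil markers were higher in every LPS library than in any other, and endothelial markers higher in every Vehicle library than in any other, and their part in the group differences below was not tested. All 6 alveolar type 2, 5 alveolar type 1, 3 club cell, 6 neutrophil and 5 endothelial markers were detected in every library.

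Mitochondrially encoded RNA took a larger share of the counts in every LPS+TSLP library than in any Vehicle library. In order of replicate number, here and wherever each library's value is listed, the share was 13.1, 6.5, 5.35 and 2.0% in LPS+TSLP, 1.2, 2.58 and 2.29% in LPS, and 1.11, 1.27 and 1.17% in Vehicle. LPS+TSLP replicate 4 lay inside the LPS range, and LPS replicate 1 inside the Vehicle range, so LPS overlapped both other groups. Group means were 6.74% ± 4.67 in LPS+TSLP (SD, n = 4), 2.02% ± 0.726 in LPS and 1.18% ± 0.0773 in Vehicle (SD, n = 3 each). Without replicate 1 of either group the means were 4.62% in LPS+TSLP and 2.44% in LPS. Counting error was small beside this spread, since no 95% Wilson interval of a share was wider than 0.0165 percentage points either side, and such intervals cover counting error only. In whole tissue, fewer cells of a type and less RNA per cell cannot be told apart.

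The classes did not move in the same proportions. Of all counts, the 13 mRNAs took 12.8, 6.2, 5.11 and 1.92% in LPS+TSLP, 1.08, 2.45 and 2.16% in LPS, and 1.1, 1.25 and 1.15% in Vehicle. For the 2 rRNAs the shares were 0.252, 0.284, 0.224 and 0.0691% in LPS+TSLP, 0.114, 0.119 and 0.129% in LPS, and 0.0106, 0.00913 and 0.0147% in Vehicle. Every library of LPS+TSLP and of LPS lay above every Vehicle library for the rRNAs, while for the mRNAs LPS replicate 1 lay below the Vehicle libraries. The 22 tRNAs took 0.0295, 0.0179, 0.0138 and 0.00517% in LPS+TSLP, 0.00696, 0.00954 and 0.00371% in LPS, and 0.00231, 0.00337 and 0.00268% in Vehicle, again with no overlap of LPS+TSLP or LPS with Vehicle.

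**Figure D1:**
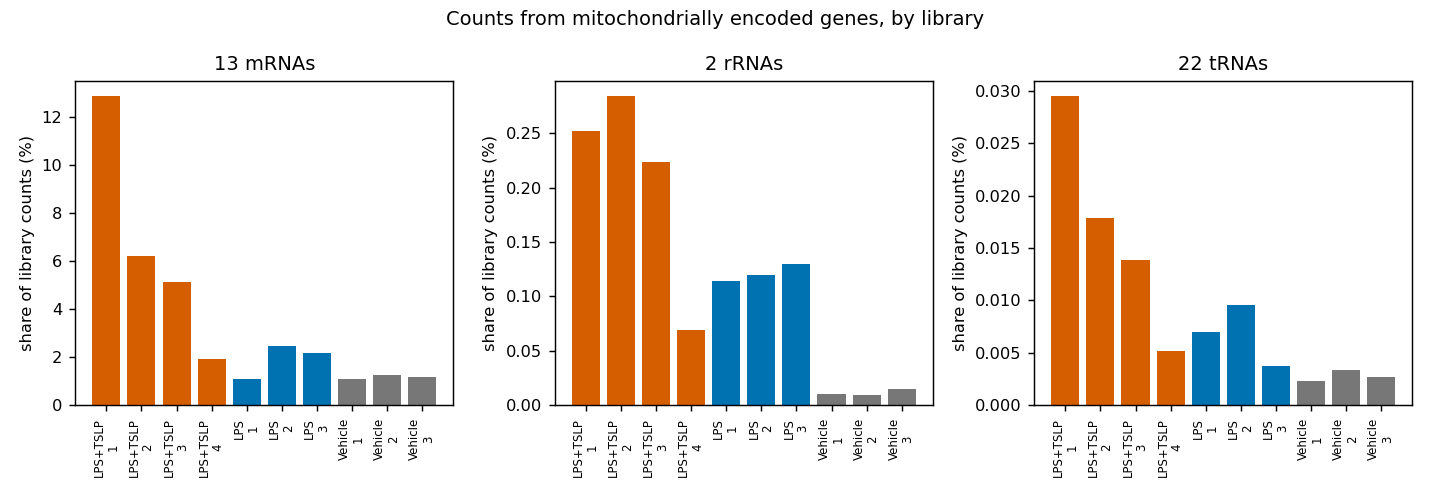
Share of each library's counts (%, bars, 1 per library, scales differ between panels) from the 13 mRNAs, 2 rRNAs and 22 tRNAs of the mitochondrial genome. LPS+TSLP replicate 1 has the highest mRNA share, 12.8%, and all rRNA shares of LPS+TSLP and LPS lie above the 0.0147% of the highest Vehicle library.

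In LPS+TSLP against Vehicle all 13 mRNAs and both rRNAs rose, and so did 8 of the 12 tRNAs that had enough counts to test. None fell. Over all 17139 genes tested, 8.82% were called higher and 5.35% lower (edgeR quasi-likelihood test, Benjamini-Hochberg adjusted p under 0.05). The median log2 fold change of the 13 mRNAs was 3.01, from 2.38 to 4.61, beside 0.03 over all genes tested. All 13 mRNAs, both rRNAs and 11 of the 12 tRNAs had every LPS+TSLP library above every Vehicle library, which 15.7% of all genes had. Without LPS+TSLP replicate 1 and LPS replicate 1, 13 mRNAs were again called, with a median of 2.48. Values ran from 1.55 for mt-Co1 to 3.47 for mt-Atp6. Both rRNAs and 7 tRNAs were called too, beside 13.3% of all genes called higher. The number of mRNAs called was 5 without Vehicle replicate 1 and 8 without Vehicle replicate 2. In those fits 435 of 17603 and 404 of 17601 genes of the whole table were called higher. With a trend with GC content removed, 1 mRNA was called, as described further on. There 4.49% of all genes were called higher, and the mRNA median was 1.33.

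Complex I, the NADH dehydrogenase that takes electrons from NADH, has 7 subunits from this genome. Levels below are CPM after scaling by the trimmed mean of M-values (TMM), and fold changes beside the levels of members are those of LPS+TSLP against Vehicle unless another comparison is named. The core membrane subunit mt-Nd1 had 15609, 7028, 6102 and 2356 CPM in LPS+TSLP, 2756, 3390.1 and 2773 CPM in LPS, and 1137, 1373 and 1123 CPM in Vehicle. All LPS+TSLP libraries but replicate 4 lay above the LPS libraries, and all LPS libraries lay above Vehicle. mt-Nd1 rose in LPS+TSLP (log2 fold change 2.68, SE 0.52, adjusted p = 0.0098). mt-Nd2, another membrane subunit, had 4123, 4892, 3973 and 1436 CPM in LPS+TSLP, 1059.6, 2148 and 1674 CPM in LPS, and 607, 709.9 and 554 CPM in Vehicle (log2 fold change 2.53, SE 0.42, adjusted p = 0.0049). Its highest library was LPS+TSLP replicate 2 and not replicate 1. mt-Nd4, one of the proton-pumping subunits, had 8289.9, 5393, 4221 and 1593 CPM in LPS+TSLP, 928, 2242 and 1667 CPM in LPS, and 661, 816 and 713 CPM in Vehicle (log2 fold change 2.74, SE 0.51, adjusted p = 0.0082). mt-Nd5, the distal proton-pumping subunit, had 5719, 6734, 5343 and 2006 CPM in LPS+TSLP, 542, 2525 and 2202 CPM in LPS, and 563, 576 and 607 CPM in Vehicle (log2 fold change 3.09, SE 0.55, adjusted p = 0.007). LPS replicate 1 was the lowest library of all for mt-Nd5, below the Vehicle libraries, although it lay above them for mt-Nd1, mt-Nd2 and mt-Nd4.

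mt-Nd6, the complex I subunit encoded on the light strand, had 1572, 1907, 1519 and 567 CPM in LPS+TSLP, 874, 839 and 649 CPM in LPS, and 153, 145 and 182 CPM in Vehicle (log2 fold change 3.12, SE 0.38, adjusted p = 0.0021). The LPS and Vehicle libraries did not overlap, and LPS+TSLP replicate 4 lay below all LPS libraries. The small subunits mt-Nd3 and mt-Nd4l had far fewer counts. mt-Nd3 had 97.2, 49.7, 43.1 and 16.3 CPM in LPS+TSLP, 31, 26.2 and 13.7 CPM in LPS, and 5.56, 9.98 and 6.12 CPM in Vehicle (log2 fold change 2.83, SE 0.54, adjusted p = 0.0091). mt-Nd4l had 41.3, 51.7, 24.3 and 12.3 CPM in LPS+TSLP, 2.07, 5.31 and 7.39 CPM in LPS, and 1.57, 4.32 and 2.79 CPM in Vehicle (log2 fold change 3.48, SE 0.60, adjusted p = 0.0059). All 4 LPS+TSLP libraries exceeded all LPS libraries for mt-Nd4l, the sole mRNA of which this was true. Of its 50-base stretches 98.8% are shared with an annotated nuclear copy, so its level depends on how shared reads were placed.

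Cytochrome b (mt-Cytb), the sole complex III subunit of this genome, had 19997, 9709, 7751 and 3088 CPM in LPS+TSLP, 2144, 3949 and 3278 CPM in LPS, and 1831, 1958 and 1735 CPM in Vehicle (log2 fold change 2.46, SE 0.53, adjusted p = 0.015). The order LPS+TSLP, LPS, Vehicle held for the group means, and LPS+TSLP replicate 4 lay below LPS replicates 2 and 3. mt-Co1, the catalytic subunit of complex IV (cytochrome c oxidase), was the most counted member, with 75799, 24767, 20734 and 8102 CPM in LPS+TSLP, 3374, 9134 and 9259 CPM in LPS, and 5827, 6657 and 6122 CPM in Vehicle (log2 fold change 2.38, SE 0.67, adjusted p = 0.038). LPS replicate 1 lay below all Vehicle libraries for mt-Co1. mt-Co2, which receives electrons from cytochrome c, had 432, 199.5, 189 and 50.3 CPM in LPS+TSLP, 36, 29.3 and 54.8 CPM in LPS, and 18.9, 22.2 and 18.4 CPM in Vehicle (log2 fold change 3.46, SE 0.59, adjusted p = 0.0056). mt-Co3, the third core subunit, had 239.6, 91.6, 118 and 22.6 CPM in LPS+TSLP, 19.1, 22.1 and 22.9 CPM in LPS, and 12.1, 16.2 and 15.6 CPM in Vehicle (log2 fold change 3.01, SE 0.60, adjusted p = 0.011). In both, LPS+TSLP replicate 4 lay within the LPS range and the other LPS+TSLP libraries lay well above it.

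The ATP synthase membrane subunits mt-Atp6 and mt-Atp8 are read from overlapping frames. mt-Atp6, which forms part of the proton channel, had 1024, 326, 154 and 33.7 CPM in LPS+TSLP, 11.3, 17.7 and 34.8 CPM in LPS, and 10.6, 16 and 20.6 CPM in Vehicle (log2 fold change 4.61, SE 0.99, adjusted p = 0.014). Its level in LPS+TSLP replicate 1 exceeded those of the other 9 libraries together, and LPS+TSLP replicate 4 lay below LPS replicate 3. mt-Atp8 had the lowest counts of the mRNAs, with 2.88, 2.47, 2.62 and 1.1 CPM in LPS+TSLP, 0.244, 0.452 and 1.33 CPM in LPS, and 0.112, 0.48 and 0.164 CPM in Vehicle (log2 fold change 3.13, SE 0.73, adjusted p = 0.02). For both genes all LPS+TSLP libraries exceeded all Vehicle libraries.

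Both rRNAs rose by more than every mRNA but mt-Atp6, and without LPS+TSLP replicate 1 by more than mt-Atp6 too, at log2 fold changes of 4.19 for mt-Rnr1, 4.05 for mt-Rnr2 and 3.46 for mt-Atp6. The small-subunit rRNA mt-Rnr1 had 1030.2, 851, 729.6 and 202 CPM in LPS+TSLP, 574, 429 and 431 CPM in LPS, and 28.6, 24.4 and 45.2 CPM in Vehicle (log2 fold change 4.42, SE 0.53, adjusted p = 0.0018). The large-subunit rRNA mt-Rnr2 had 1573, 1947, 1464 and 492 CPM in LPS+TSLP, 666, 754 and 866 CPM in LPS, and 75.9, 65.1 and 96.4 CPM in Vehicle (log2 fold change 4.11, SE 0.44, adjusted p = 0.0013). LPS+TSLP replicate 4 was the lowest library of its group and lay below all LPS libraries for both rRNAs. With the GC trend removed both were still called, at log2 fold changes of 2.72 (adjusted p = 0.03) for mt-Rnr1 and 2.20 (adjusted p = 0.026) for mt-Rnr2. How rRNA was depleted or mRNA enriched in the libraries is not given in the sources used here.

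In LPS against Vehicle 4 of 13 mRNAs, both rRNAs and 2 of 12 tested tRNAs were called higher and none lower, where 14.2% of all genes were called higher and 10.7% lower, and with the GC trend removed the median mRNA fold change turned from 1.14 to −0.71 with no mRNA called. mt-Nd6 had the largest change of the mRNAs (log2 fold change 2.30, SE 0.38, adjusted p = 0.0037). The other calls were mt-Nd3 (log2 fold change 1.71, SE 0.54, adjusted p = 0.04), mt-Nd2 (log2 fold change 1.38, SE 0.41, adjusted p = 0.033) and mt-Nd5 (log2 fold change 1.59, SE 0.54, adjusted p = 0.04997). All 4 encode complex I subunits, and each had a negative log2 fold change with the GC trend removed, from −0.75 for mt-Nd2 to −0.0068 for mt-Nd6, none of them called. mt-Nd1 did not pass (log2 fold change 1.30, SE 0.51, adjusted p = 0.085), nor did mt-Cytb (log2 fold change 0.76, SE 0.52, adjusted p = 0.30) or mt-Co1 (log2 fold change 0.23, SE 0.66, adjusted p = 0.83). All 3 LPS libraries exceeded all Vehicle libraries for 8 of 13 mRNAs, both rRNAs and 4 of 12 tRNAs, beside 24.7% of all genes.

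The rRNA changes in LPS against Vehicle were larger than those of any mRNA. They were larger for mt-Rnr1 (log2 fold change 3.87, SE 0.52, adjusted p = 0.002) than for mt-Rnr2 (log2 fold change 3.27, SE 0.44, adjusted p = 0.002). After removal of the GC trend the values were 1.93 (adjusted p = 0.051) and 1.18 (adjusted p = 0.11), and 10.8% of all genes were called higher. With LPS+TSLP replicate 1 left out as well both were called, at 1.92 (adjusted p = 0.0095) and 1.17 (adjusted p = 0.03), and with LPS replicate 1 left out as well neither was, at 1.69 (adjusted p = 0.14) and 1.23 (adjusted p = 0.17). The count of mRNAs called was 2 without LPS+TSLP replicate 2, LPS+TSLP replicate 3 or LPS replicate 3, and 1 without LPS replicate 2 or any single Vehicle library. In these fits 1012 to 2238 genes of the whole table were called higher, of 16958 to 17636 tested. Without LPS replicate 1 the count of mRNAs was 3, with a median of 1.35, beside 1558 of 17649 genes. Without both LPS+TSLP replicate 1 and LPS replicate 1 it was 5, with a median of 1.37, beside 13.6% of all genes. Both rRNAs and 2 tRNAs were called in that last fit.

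In LPS+TSLP against LPS no member passed the test, and neither did any other of the 17139 genes (0% called in either direction by edgeR). All 13 mRNAs nevertheless had positive log2 fold changes, from 0.82 for mt-Nd6 to 4.17 for mt-Atp6, with a median of 1.70 beside 0.02 over all genes tested. At an unadjusted p under 0.05 there were 1388 of the 17139 genes, all 13 mRNAs among them. The mRNAs at that level were 10 without LPS+TSLP replicate 1, 9 without LPS replicate 1 and 6 without both. In those fits 1680 of 16997, 891 of 17649 and 1045 of 17486 genes reached it. These mRNAs are cut from shared precursors, so they are not 13 separate results. limma-voom called no gene. The DESeq2 Wald test called 22 genes higher (0.128%), of which mt-Nd4l, mt-Co2, mt-Co3, mt-Atp6 and the tRNA mt-Te were 5. Of the 50-base stretches of those mRNAs, 98.8, 100, 99.9 and 99.5%, in that order, also occur in other annotated transcripts. Their levels therefore depend on how shared reads were placed, and DESeq2 was not run with the copies' counts added. mt-Nd4l had a log2 fold change of 2.71 in the edgeR fit (SE 0.57, 95% interval 1.37 to 4.06, adjusted p = 0.59). For mt-Co1 it was 2.16 (SE 0.66, 95% interval 0.59 to 3.72, adjusted p = 0.59). Without LPS+TSLP replicate 1 the log2 fold change was 1.30 for mt-Co1 and 3.01 for mt-Atp6, and without LPS replicate 1 as well it was 0.96 for mt-Co1 and 2.70 for mt-Atp6. With the counts of annotated nuclear copies added to their genes it was 3.39 for mt-Atp6. All 4 LPS+TSLP libraries exceeded all LPS libraries for 1 of 13 mRNAs, neither rRNA and 2 of 12 tRNAs, where 3.88% of all genes did so. The median over the mRNAs was 1.30 without LPS+TSLP replicate 1, 1.41 without LPS replicate 1 and 0.96 without both, and no mRNA, rRNA or tRNA was called without both. Each group enters 2 of the 3 comparisons, so the comparisons share libraries.

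**Figure D2:**
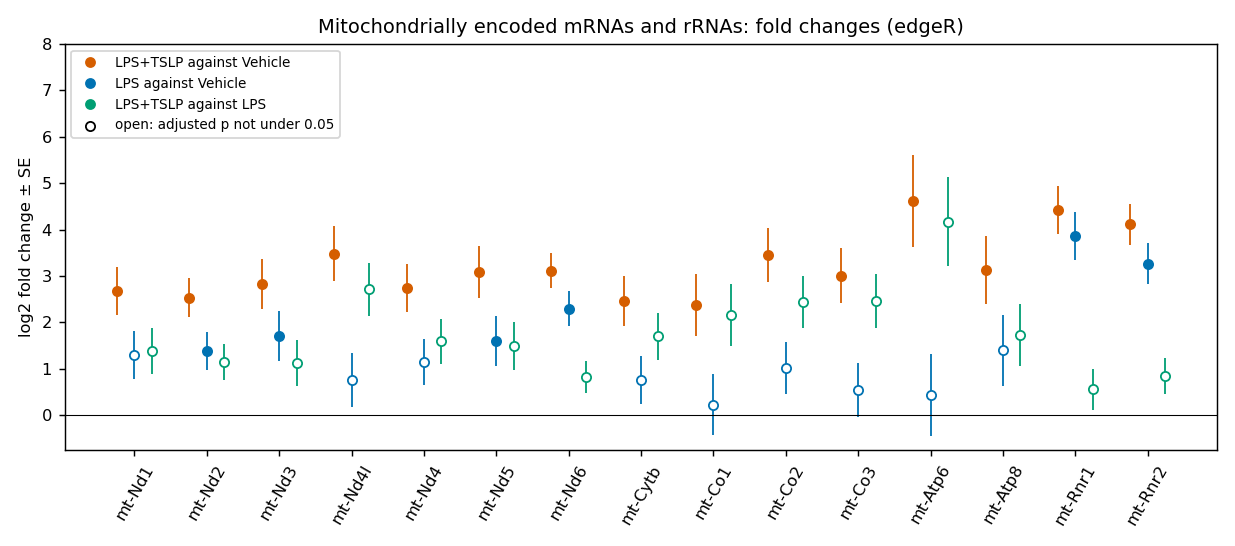
Log2 fold change (vertical axis, points with ± SE bars, edgeR) of each mitochondrial mRNA and rRNA in 3 comparisons, filled where the adjusted p was under 0.05 and open where it was not. All LPS+TSLP against Vehicle points are filled and lie between 2.38 and 4.61, and all LPS+TSLP against LPS points are open.

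Levels of AT-rich nuclear genes differed between the groups as well. The 13 mRNAs hold 31.9% to 41.1% G and C, and 1110 nuclear genes tested lie in that range. These nuclear genes had a median log2 fold change of 1.42 in LPS+TSLP against Vehicle, of which 49.4% were called higher, and of 1.47 in LPS against Vehicle, of which 55.2% were called higher. Their median was −0.08 in LPS+TSLP against LPS. The mean centred log2 level of these genes less that of the GC-richest nuclear genes, those at 54.6% G and C or more, was −0.17, 0.57, 0.54 and 0.58 in LPS+TSLP, 0.35, 0.60 and 0.78 in LPS, and −1.26, −1.29 and −0.71 in Vehicle. The 3 Vehicle libraries had the lowest values, for nuclear genes and for mt mRNAs alike. LPS+TSLP replicate 1 had the highest mt mRNA level with a GC balance between those of Vehicle and the other libraries.

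**Figure D3:**
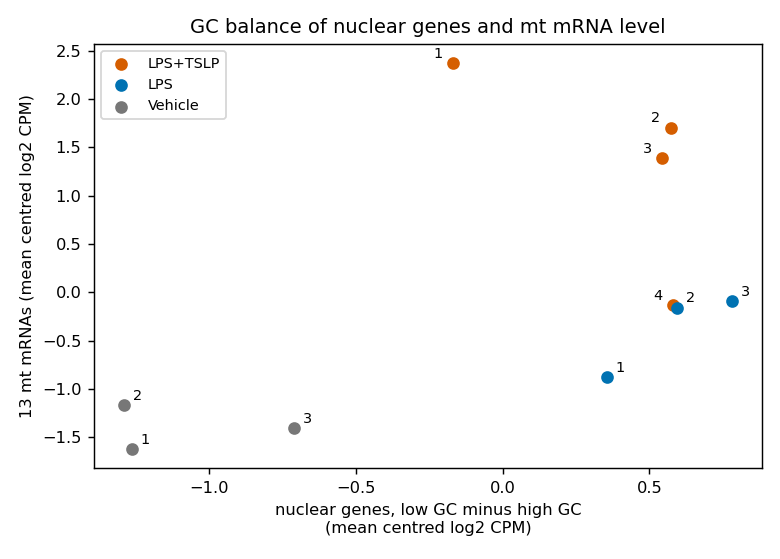
Mean centred log2 CPM of the 13 mt mRNAs (vertical axis) against the same for nuclear genes in the GC range of the mt mRNAs less the GC-richest nuclear genes (horizontal axis), 1 numbered point per library. The Vehicle libraries lie at −1.29 to −0.71 on the horizontal axis and lowest on the vertical axis, and LPS+TSLP replicate 1 lies highest, at 2.37.

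With the dependence on GC content fitted per library and taken out, LPS+TSLP against Vehicle kept positive values for all 13 mRNAs. They ran from 0.62 for mt-Nd2 to 3.24 for mt-Atp6. Only mt-Nd4l was called (log2 fold change 2.60, adjusted p = 0.029), and 98.8% of its 50-base stretches are shared with an annotated nuclear copy. The median was 0.34 when LPS+TSLP replicate 1 was also left out, with mt-Nd3 at −0.44 and mt-Nd4 at −0.025. In LPS+TSLP against LPS the median with the trend removed was 2.0, and no gene was called (0%). Treatment and GC balance cannot be told apart in the comparisons with Vehicle, since the 3 Vehicle libraries differ from the other 7 in both.

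The make-up of the mt mRNA pool differed between libraries and split the LPS+TSLP group. Of the counts of the 13 mRNAs, mt-Co1 took 57, 40.5, 41.3 and 42% in LPS+TSLP, 28.6, 37.5 and 42.8% in LPS, and 53.8, 54.1 and 55.2% in Vehicle. LPS+TSLP replicate 1 lay above all Vehicle libraries, while LPS+TSLP replicates 2 to 4 lay below them, near LPS replicates 2 and 3. mt-Nd5 took 4.3, 11, 10.6 and 10.4% in LPS+TSLP, 4.61, 10.4 and 10.2% in LPS, and 5.2, 4.68 and 5.47% in Vehicle. Here LPS+TSLP replicate 1 and LPS replicate 1 had the lowest values, below every Vehicle library, and the other libraries of their groups lay far above Vehicle. mt-Nd2 took 3.1, 8.0, 7.92 and 7.45% in LPS+TSLP, 9.0, 8.83 and 7.74% in LPS, and 5.61, 5.77 and 4.99% in Vehicle, with LPS+TSLP replicate 1 below every Vehicle library.

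mt-Nd1 was the sole mRNA whose share kept all 3 groups apart, highest in LPS and lowest in Vehicle. It took 11.7, 11.5, 12.2 and 12.2% in LPS+TSLP, 23.4, 13.9 and 12.8% in LPS, and 10.5, 11.2 and 10.1% in Vehicle. LPS replicate 1 held the highest value by a wide margin. Between LPS and Vehicle, the shares of mt-Nd1, mt-Nd2, mt-Nd4 and mt-Nd6 were higher in every LPS library and that of mt-Co1 lower, and the other 8 overlapped. Between LPS+TSLP and Vehicle, mt-Nd1 and mt-Co2 were higher in every LPS+TSLP library and 11 overlapped. The share of mt-Cytb stayed within 15% to 18.2% in all 10 libraries.

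**Figure D4:**
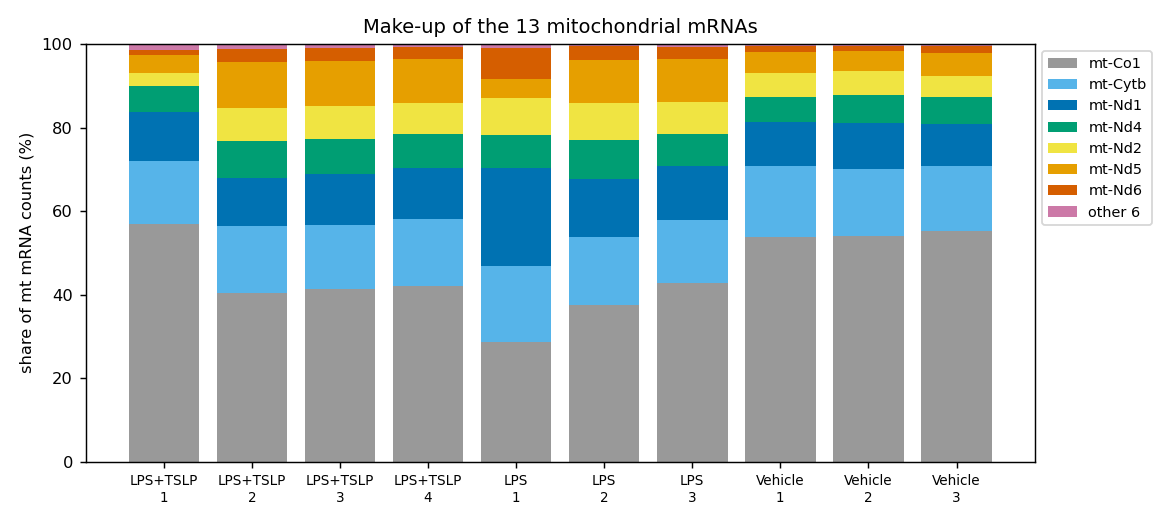
Share of the counts of the 13 mt mRNAs (%, stacked bars, 1 per library) taken by 7 mRNAs and by the other 6 together. mt-Co1 takes 57.0% in LPS+TSLP replicate 1 and 53.8% to 55.2% in Vehicle, against 40.5% to 42.0% in LPS+TSLP replicates 2 to 4.

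The light-strand gene mt-Nd6 was set against the other 12 mRNAs, all from the heavy strand. The ratio does not depend on the share of the library that mitochondria take. The strand setting of the counting is not given, so mt-Nd6 counts may include heavy-strand RNA across the same bases. The ratio is therefore one of counts over the genes, and need not be one of light-strand to heavy-strand mRNA. Per 100 counts of the other 12 mRNAs, the mt-Nd6 counts were 1.2, 3.22, 3.12 and 3.03 in LPS+TSLP, 8.02, 3.57 and 3.09 in LPS, and 1.44, 1.19 and 1.67 in Vehicle. LPS+TSLP replicate 1 lay within the Vehicle range, and LPS+TSLP replicates 2 to 4 lay close to LPS replicates 2 and 3. The mean log2 ratio was −5.35 ± 0.69 in LPS+TSLP (SD, n = 4), −4.49 ± 0.74 in LPS and −6.14 ± 0.24 in Vehicle (SD, n = 3 each). LPS exceeded Vehicle by 1.65 (exact two-sided permutation test, p = 0.1, the smallest that 3 against 3 allows). LPS+TSLP exceeded Vehicle by 0.79 (p = 0.17) and lay below LPS by a difference of −0.86 (p = 0.17), where the smallest p allowed by an exact permutation test of 4 against 3 is 0.0571. With groups of these sizes none of the 3 tests could give a p under 0.05, so they do not decide whether the ratio differed. Over these 3 tests the Benjamini-Hochberg adjusted p was 0.17 for each.

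Against mt-Nd5, its neighbour on the opposite strand, mt-Nd6 had a steady ratio in all libraries but LPS replicate 1. Per 100 mt-Nd5 counts, the mt-Nd6 counts were 27.5, 28.3, 28.4 and 28.2 in LPS+TSLP, 161, 33.2 and 29.5 in LPS, and 27.3, 25.2 and 30 in Vehicle. The 9 other libraries lay between 25.2 and 33.2, whatever their treatment. Group means of mt-Nd5 and mt-Nd6 in TMM-scaled CPM per kilobase were 2714 and 2681 in LPS+TSLP and 319 and 309 in Vehicle. In LPS, with replicate 1 included, they were 963 and 1517. Whether heavy-strand RNA counted across mt-Nd6 has a part in these near-equal levels was not tested. The ratio of rRNA to mRNA also set groups apart. Per 100 mRNA counts, the rRNA counts were 1.96, 4.58, 4.37 and 3.6 in LPS+TSLP, 10.5, 4.86 and 6.0 in LPS, and 0.965, 0.728 and 1.28 in Vehicle. Every LPS+TSLP and LPS library exceeded every Vehicle library, and every LPS+TSLP library lay below every LPS library. The ratio of mt-Rnr1 to mt-Rnr2 was 0.655, 0.437, 0.498 and 0.411 in LPS+TSLP, 0.861, 0.57 and 0.498 in LPS, and 0.377, 0.376 and 0.469 in Vehicle, highest in the libraries numbered 1 of LPS+TSLP and LPS.

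**Figure D5:**
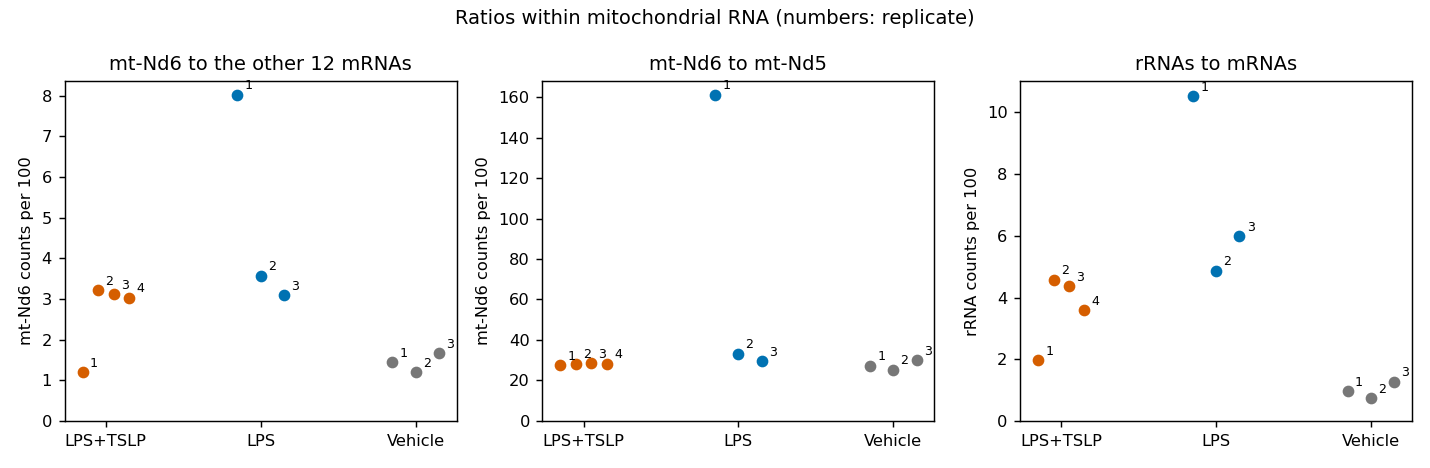
Counts of mt-Nd6 per 100 counts of the other 12 mRNAs, counts of mt-Nd6 per 100 of mt-Nd5, and rRNA counts per 100 mRNA counts, 1 point per library with its replicate number. LPS replicate 1 lies highest in all panels, at 8.02, 161 and 10.5, and LPS+TSLP replicate 1 lies at the Vehicle level in the first panel, at 1.20.

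Of the 22 tRNAs, 21 had at least 1 count and 12 had enough to test, and 9, mt-Tf among them, stayed under 10 counts in every library. mt-Tf, the phenylalanine tRNA, had 0 counts in all 10 libraries, which allows at most 0.163 to 0.185 CPM by a limit of 3 counts per library. Of the tRNA counts, the 8 light-strand tRNAs held 78.5, 71.8, 68.5 and 64.9% in LPS+TSLP, 74.3, 78.4 and 83.4% in LPS, and 84.2, 73.9 and 79.7% in Vehicle. The proline tRNA mt-Tp had 117, 62.7, 45.4 and 17.1 CPM in LPS+TSLP, 21.8, 34.1 and 16 CPM in LPS, and 8.43, 11.8 and 12 CPM in Vehicle (log2 fold change 2.50, SE 0.54, adjusted p = 0.015). The cysteine tRNA mt-Tc had 46.4, 19.2, 15.7 and 5.37 CPM in LPS+TSLP, 22.1, 23.1 and 6.89 CPM in LPS, and 4.21, 5.02 and 3.55 CPM in Vehicle (log2 fold change 2.34, SE 0.64, adjusted p = 0.035), and it was called in LPS against Vehicle as well (log2 fold change 2.03, SE 0.66, adjusted p = 0.045). All LPS libraries exceeded all Vehicle libraries for both.

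The leucine tRNA mt-Tl1, which follows mt-Rnr2 on the heavy strand, had the largest tRNA change. The size of that change is uncertain, since mt-Tl1 had only 4, 4 and 11 counts in Vehicle. It had 4.03, 17.1, 15.4 and 6.77 CPM in LPS+TSLP, 1.83, 4.24 and 2.28 CPM in LPS, and 0.225, 0.214 and 0.601 CPM in Vehicle. It rose in LPS+TSLP against Vehicle (log2 fold change 4.94, SE 0.68, adjusted p = 0.0026) and in LPS against Vehicle (log2 fold change 2.98, SE 0.67, adjusted p = 0.011), and both calls held with the GC trend removed (log2 fold changes 4.59 and 2.60, adjusted p = 0.0073 and 0.02). Its lowest LPS+TSLP library was replicate 1, in contrast to mt-Tp, mt-Tn and mt-Tc, where replicate 1 was the highest. The asparagine tRNA mt-Tn had 50.2, 14.7, 14.1 and 5.37 CPM in LPS+TSLP, 11.2, 10.7 and 5.94 CPM in LPS, and 4.55, 3.26 and 2.62 CPM in Vehicle (log2 fold change 2.60, SE 0.65, adjusted p = 0.025). The glutamate tRNA mt-Te, between mt-Nd6 and mt-Cytb, had 12.7, 23.8, 13.9 and 4.64 CPM in LPS+TSLP, 0.731, 4.07 and 1.44 CPM in LPS, and 1.01, 2.3 and 1.42 CPM in Vehicle (log2 fold change 3.12, SE 0.67, adjusted p = 0.014). LPS replicate 1 was the lowest library of all for mt-Te. The other leucine tRNA mt-Tl2 was also called (log2 fold change 2.74, SE 0.70, adjusted p = 0.027), while mt-Ty (log2 fold change 2.18, SE 0.92, adjusted p = 0.13) and mt-Ts2 (log2 fold change 2.35, SE 0.79, adjusted p = 0.066) did not pass. With the GC trend removed 2 of 12 tRNAs were called higher in LPS+TSLP against Vehicle, beside 4.49% of all genes. In LPS against Vehicle 1 of 12 was, near the 10.8% of all genes.

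Per kilobase of gene the mRNAs differed widely in level. Group means in LPS+TSLP were 20939 TMM-scaled CPM per kilobase for mt-Co1, 8860 for mt-Cytb, 8123 for mt-Nd1, 3537 for mt-Nd4, 3474 for mt-Nd2, 2714 for mt-Nd5 and 2681 for mt-Nd6. The SDs of 1109.8 to 19303 CPM per kilobase (n = 4) measure spread between libraries, not between genes of the same library. Within every LPS+TSLP library mt-Co1 lay above mt-Cytb, mt-Cytb above mt-Nd1 and mt-Nd1 above mt-Nd4. mt-Nd2 lay above mt-Nd5 in each as well, and mt-Nd5 just above mt-Nd6. mt-Nd4 lay above mt-Nd2 in replicate 1 and below it in replicates 2 to 4. In Vehicle the spread was narrower, and the means were 4014 ± 272 for mt-Co1, 1609.5 ± 97.6 for mt-Cytb, 1266 ± 147 for mt-Nd1, 601 ± 76.4 for mt-Nd2, 529.7 ± 57.1 for mt-Nd4, 319 ± 12.4 for mt-Nd5 and 309 ± 37.3 for mt-Nd6 (SD, n = 3). There mt-Nd5 and mt-Nd6 were the neighbours whose means lay within each other's SD. The mean of mt-Nd4 lay within the SD of mt-Nd2, but that of mt-Nd2 lay outside the SD of mt-Nd4. In every Vehicle library mt-Nd2 lay above mt-Nd4. Shared sequence was counted as the share of a gene's 50-base stretches that also occur in another annotated transcript. The 5 mRNAs with 98% to 100% of stretches shared were lower in LPS+TSLP, from 565 CPM per kilobase for mt-Atp6 and 318 for mt-Co2 to 109 for mt-Nd4l, and mt-Atp8 had 11.1. For mt-Atp8 no annotated copy was found in these transcripts, although its neighbours are copied. No stretch of mt-Nd1, mt-Nd6 or mt-Cytb was shared, 8.19% of mt-Nd2 was, and 51.1% of mt-Co1 and 62.2% of mt-Nd4 were.

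The copies on chromosome 1 (GRCm38, 24611535 to 24616197, minus strand, annotated as unprocessed pseudogenes) had counts in every library. Gm28661, which matches mt-Co2 over 681 aligned bases with 0 mismatches, had 4365, 2897, 2282 and 630 counts in LPS+TSLP, 478, 363 and 1027 counts in LPS, and 309, 354 and 277 counts in Vehicle. Gm10925, the copy of mt-Atp6, had 3613, 2260, 1720 and 510 counts in LPS+TSLP, 211, 471 and 738 counts in LPS, and 178, 242 and 232 counts in Vehicle. For both copies LPS+TSLP replicate 1 was the highest library and replicate 4 the lowest of LPS+TSLP, as for mt-Co2 and mt-Atp6. Of 9 copies tested, 7 lie on chromosome 1, and Gm13340 and Gm13341 lie on chromosome 2. All 7 on chromosome 1 were called higher in LPS+TSLP against Vehicle, beside 8.82% of all genes, and neither copy on chromosome 2 passed (adjusted p = 0.069 for Gm13340 and 0.31 for Gm13341). The median log2 fold change over the 9 was 3.15, and none was called in either of the other comparisons. Without LPS+TSLP replicate 1 and LPS replicate 1 the same count of 7 on chromosome 1 was called in LPS+TSLP against Vehicle, beside 13.3% of all genes. In LPS against Vehicle 2 of those 7 were, beside 13.6% of all genes. Reads of a gene and of an identical copy cannot be told apart, so the levels of these mRNAs are uncertain. With the copies' counts added to their genes, 13, 4 and 0 mRNAs were called in LPS+TSLP against Vehicle, LPS against Vehicle and LPS+TSLP against LPS, as without them.

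Nuclear-encoded partners of these proteins followed another order. The 81 nuclear genes of respiratory complexes I to IV and the ATP synthase had summed levels, in unscaled CPM, of 8179, 6969, 7493 and 6095 in LPS+TSLP, 11697, 8486 and 6986 in LPS, and 5879.8, 6212 and 5790.1 in Vehicle. LPS replicate 1 had the highest nuclear sum and the lowest mt mRNA share of the 10 libraries. Of these genes 80 were tested. Against Vehicle 6 rose in LPS+TSLP, none fell and the median log2 fold change was 0.56, where 8.82% of all genes rose and 5.35% fell. In LPS against Vehicle 44 rose and none fell, with a median of 0.91, where 14.2% of all genes rose and 10.7% fell, and 43 rose with the GC trend removed, beside 10.8% of all genes. None was called in LPS+TSLP against LPS (0% of all genes), with a median of −0.37. Without LPS+TSLP replicate 1 and LPS replicate 1 the counts that rose were 20 in LPS+TSLP against Vehicle, beside 13.3% of all genes, and 33 in LPS against Vehicle, beside 13.6%, with medians of 0.50 and 0.61, and the median in LPS+TSLP against LPS was −0.17.

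By complex, 21 of 37 nuclear genes of complex I, 5 of 9 of complex III and 9 of 14 of complex IV rose in LPS against Vehicle. So did 9 of 16 of the ATP synthase and none of 4 of complex II, beside the same 14.2% of all genes. With the GC trend removed the counts were 20, 4, 8, 10 and 1 in the same order, beside 10.8% of all genes. The 4 genes of complex II are too few to set it apart from all genes. Without LPS+TSLP replicate 1 and LPS replicate 1 the counts were 15 for complex I, 4 for complex III and 8 for complex IV. They were 6 for the ATP synthase and 0 for complex II, beside 13.6% of all genes. Cox7b, a small subunit of complex IV, had 60.6, 68.8, 72.2 and 42.6 CPM in LPS+TSLP, 121, 101 and 74 CPM in LPS, and 33.8, 34.7 and 35.2 CPM in Vehicle (log2 fold change 1.51, SE 0.24, adjusted p = 0.0032 in LPS against Vehicle). The LPS and Vehicle libraries did not overlap, but with the GC trend removed Cox7b did not pass (adjusted p = 0.055). Uqcrq, a small subunit of complex III, had 165, 126, 151 and 83.2 CPM in LPS+TSLP, 209, 127 and 114 CPM in LPS, and 54.9, 75.1 and 67.9 CPM in Vehicle (log2 fold change 1.18, SE 0.30, adjusted p = 0.017 in LPS against Vehicle, and log2 fold change 0.99, SE 0.28, adjusted p = 0.039 in LPS+TSLP against Vehicle).

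Of 82 mitochondrial ribosomal protein genes, 3 rose in LPS+TSLP against Vehicle (median 0.38, beside 8.82% of all genes called higher) and 33 in LPS against Vehicle (median 0.59, beside 14.2%), and none fell. Leaving out LPS+TSLP replicate 1 and LPS replicate 1 gave counts of 17 in LPS+TSLP against Vehicle and 23 in LPS against Vehicle, beside 13.3% and 13.6% of all genes. Mrpl52, of the large subunit, had 81.8, 80, 84.8 and 55.3 CPM in LPS+TSLP, 178, 105 and 85.6 CPM in LPS, and 37.8, 39.3 and 43.4 CPM in Vehicle (log2 fold change 1.61, SE 0.27, adjusted p = 0.004 in LPS against Vehicle). Of 37 genes of mitochondrial transcription and RNA processing, 7 rose and 1 fell in LPS+TSLP against Vehicle, where 8.82% of all genes rose and 5.35% fell, and 8 rose in LPS against Vehicle, where 14.2% did. With the GC trend removed none rose in LPS+TSLP against Vehicle, beside 4.49% of all genes, and 5 rose and 2 fell in LPS against Vehicle, beside 10.8% called higher. Pnpt1, the polynucleotide phosphorylase that degrades mitochondrial RNA, had 19.3, 30.2, 33 and 23.1 CPM in LPS+TSLP, 30.1, 39.6 and 36.5 CPM in LPS, and 7.92, 11.9 and 15.3 CPM in Vehicle (log2 fold change 1.60, SE 0.28, adjusted p = 0.0046 in LPS against Vehicle), and it did not pass with the GC trend removed (adjusted p = 0.086). Of 23 genes of mitochondrial biogenesis and mitophagy, Sirt1, Dnm1l and Gabpa were the 3 that rose in both comparisons with Vehicle. Of all genes 8.82% rose in LPS+TSLP against Vehicle and 14.2% in LPS against Vehicle. A count of 3 of 23 is near these shares and sets the list apart in neither comparison. With the GC trend removed Gabpa, a transcription factor of nuclear respiratory genes, passed in neither (adjusted p = 0.13 in LPS+TSLP against Vehicle and 0.11 in LPS against Vehicle), while Sirt1 and Dnm1l passed in both. Dnm1l, the dynamin-related protein of mitochondrial fission, had 35.2, 85.1, 79.6 and 79.6 CPM in LPS+TSLP, 57.3, 72.4 and 75.9 CPM in LPS, and 10.7, 14.3 and 23.8 CPM in Vehicle (log2 fold change 2.10, SE 0.35, adjusted p = 0.0052 in LPS+TSLP against Vehicle). With both libraries numbered 1 of LPS+TSLP and LPS left out, 8 genes of transcription and RNA processing rose and 1 fell in LPS+TSLP against Vehicle. In LPS against Vehicle 7 rose. In each comparison 3 of 24 genes of biogenesis and mitophagy rose, near the share of all genes. Of all genes 13.3% rose and 8.63% fell in LPS+TSLP against Vehicle, and 13.6% rose in LPS against Vehicle. None of these lists had a called gene in LPS+TSLP against LPS, with or without both libraries.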

How the data were processed

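Raw read counts per gene were deposited by the authors for 10 libraries of lung RNA. The submitters' processing notes name CASAVA, HISAT2 and HTSeq 0.6.0 and the build GRCm38. The annotation release, strand setting, read length and handling of multiple matches are not given in the sources used here, and shared or antisense reads can therefore change single genes. Values were whole numbers, with 16175172 to 18374461 counts per library.

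All 17139 genes kept by filterByExpr were tested across the whole table with edgeR 4.0.16 in R 4.3.3 (TMM scaling, robust quasi-likelihood, 1 fit of 3 groups, 7 residual degrees of freedom, two-sided, Benjamini-Hochberg adjusted p under 0.05). Alternatives used DESeq2 1.42.0, limma 3.58.1 and loess removal (span 0.3) of each library's trend with GC content or length. Ratios were compared by exact permutation tests (scipy 1.17.1). Shared sequence was counted as 50-base stretches found in other annotated transcripts of GENCODE M21, since no genome was used here. The fit was tested on simulated data. Fits that leave out LPS+TSLP replicate 1 and LPS replicate 1 together, leave out either with the GC trend removed, or add copies' counts were chosen after seeing the data.

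Members and lists were chosen with earlier results of these data known. The rule named all mRNAs and rRNAs, the 8 tested tRNAs with the highest mean CPM, and up to 3 called genes per other list and comparison with the smallest adjusted p. The few of the last kind that are shown were picked among these after their values were seen. Libraries with equal numbers had correlations of deviations from −0.34 to 0.40 and were not taken as pairs. No pair of libraries agreed within sampling noise.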

Additional observations from a re-analysis of the deposited data

Results flagged for a closer look

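In LPS+TSLP replicate 1 mt-Co1 took 57.0% of the mt mRNA counts, far from the 40.5%, 41.3% and 42.0% of replicates 2 to 4. In the same library the log2 ratio of mt-Nd6 to the other 12 mRNAs was −6.38, against −4.96, −5.00 and −5.05 in replicates 2 to 4. Both were found by asking, for 22 measures, whether the highest or lowest of the 4 LPS+TSLP libraries lay far from the next relative to the group's range (Dixon's criterion, limit 0.829), and chance puts about 1 in 20 such groups past it. Groups of 3 were not examined in this way, so LPS replicate 1 could not be picked up by it.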

How the results depend on the processing

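The count of 13 mRNAs called higher in LPS+TSLP against Vehicle was 1 with the GC trend removed, 1 when LPS+TSLP replicate 1 or LPS replicate 1 was left out as well, and 5 to 13 when each library was left out in turn. The count of 4 in LPS against Vehicle was 2 with no filter, 2 with limma-voom, 7 with only the groups compared, 1 with the length trend removed, 0 with the GC trend removed, 0 with LPS+TSLP replicate 1 or LPS replicate 1 also left out, and 1 to 6 over single libraries left out. The count of 0 in LPS+TSLP against LPS was 4 with DESeq2 and 0 with each library left out. Calls over the whole table moved too. With single libraries left out, of 16958 to 17649 genes, 404 to 2015 were called higher in LPS+TSLP against Vehicle and 1012 to 2975 in LPS against Vehicle. In LPS against Vehicle 2121 of 31040 genes were called higher with no filter and 2253 of 17139 with limma-voom. It was 2695 of 16369 with only the groups compared and 2290 of 17139 with the length trend removed. With the replicate number as a block the mRNA counts were 13, 5 and 0 in LPS+TSLP against Vehicle, LPS against Vehicle and LPS+TSLP against LPS. There 1862, 2497 and 0 of 17139 genes were called higher. With block and GC trend removal together the counts were 4, 0 and 0, beside 1317, 1888 and 0 of 17139 genes. Both rRNAs were then called in LPS against Vehicle, at 1.82 (adjusted p = 0.014) for mt-Rnr1 and 1.18 (adjusted p = 0.027) for mt-Rnr2. Fewer samples or genes enter the fits that leave libraries out or compare only the groups concerned; otherwise the cause was not tested.

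In LPS against Vehicle signs turned with the GC trend removed, where log2 fold changes were −1.59 for mt-Atp6, −1.05 for mt-Atp8, −1.09 for mt-Co1, −0.54 for mt-Co2, −0.92 for mt-Co3, −0.71 for mt-Cytb, −0.44 for mt-Nd1, −0.75 for mt-Nd2, −0.64 for mt-Nd3, −1.01 for mt-Nd4, −0.30 for mt-Nd4l, −0.29 for mt-Nd5 and −0.0068 for mt-Nd6. With the block added they were, in the same gene order, −1.59, −1.05, −0.98, −0.54, −0.94, −0.63, −0.43, −0.68, −0.84, −0.93, −0.24, −0.30 and −0.077. With LPS+TSLP replicate 1 left out they were −1.60, −1.05, −1.10, −0.55, −0.93, −0.72, −0.45, −0.77, −0.66, −1.02, −0.30, −0.31 and −0.024. With LPS replicate 1 left out they were −1.28, −0.69, −0.77, −0.54, −0.91, −0.54, −0.45, −0.52, −1.08 and −0.72 for the first 10 genes and −0.15 for mt-Nd6. mt-Co1 was at −0.059 with the length trend removed, and mt-Atp6 ranged from −0.086 to 0.76 with libraries left out. In LPS+TSLP against Vehicle, mt-Nd3 was at −0.44 and mt-Nd4 at −0.025 without LPS+TSLP replicate 1 and without the GC trend. Over single genes and settings, 1001 values kept direction and side of the threshold, 100 lost and 14 gained a call, and 54 changed sign. That total pools unlike comparisons. In LPS+TSLP against LPS edgeR called 0% of all genes, so its 15 mRNAs and rRNAs had little room to change side. With the GC trend removed, 13 of 15 changed sign and 2 lost their call in LPS against Vehicle. In LPS+TSLP against Vehicle 12 lost theirs. Counts were lowest for mt-Atp8 among the mRNAs and for the tRNAs.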
